A study of Homo sapiens with 4 samples.

Results

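The BCL2 family decides whether the outer mitochondrial membrane is opened during apoptosis, and 10 of its genes were followed here by symbol: the guardians BCL2L1 and MCL1, the effectors BAX and BAK1, and the BH3-only genes BID, BAD, BBC3, PMAIP1, BCL2L11 and BMF. Of these 10 genes, 9 have a row among the 8727 genes of the table deposited by the authors, and BAD has none, so it has no value here. The table compares HepG2 cells given 20 µM isoginkgetin for 24 h with HepG2 cells given the solvent DMSO, each as 2 libraries of polyadenylated RNA. HepG2 is an established cell line from a human liver tumour, a hepatoblastoma per the labels, and isoginkgetin is a biflavonoid of ginkgo leaves that inhibits the spliceosome. The series title puts the comparison in the setting of autophagic cell death. The labels do not say whether the libraries of a group stem from separate cultures, so the spread behind the p-values may be technical only.

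Guardian proteins hold the effectors inactive, and the effectors, once free, assemble pores that let cytochrome c out of mitochondria. BH3-only proteins sense damage or stress, bind the guardians through a short helix and, in some cases, switch the effectors on directly. In liver cells the guardians BCL-xL (from BCL2L1) and MCL1 are known as the main ones for survival.

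A row of the table deposited by the authors holds a normalized count averaged over the 4 libraries, the log2 fold change between the groups, the standard error (SE) of that change, and its p-value before and after adjustment. Which group forms the numerator is not named there. The fold changes are read here as isoginkgetin over DMSO, treatment over control, and with the other order every direction below would turn. Values of single libraries are not analysed here, so in place of them the mean of each group is given as recovered from the mean count and the fold change, with no spread of its own. In bulk RNA, fewer cells and less RNA per cell cannot be told apart.

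The effector pair and the pair of most increased BH3-only genes are the members on which the results below turn. The 250 bases before their RefSeq transcription start (GRCh38.p14) are printed 5′ to 3′ on the strand of the gene. Capitals mark the GC box GGGCGG on either strand and the E-box CACGTG, which reads the same on both strands.
BAX, chr19:48954625-48954874, plus strand: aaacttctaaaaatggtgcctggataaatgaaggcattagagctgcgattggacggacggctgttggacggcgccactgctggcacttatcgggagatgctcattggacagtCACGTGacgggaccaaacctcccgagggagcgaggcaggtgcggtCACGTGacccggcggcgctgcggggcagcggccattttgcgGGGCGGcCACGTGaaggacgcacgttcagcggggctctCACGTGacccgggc
BAK1, chr6:33580277-33580526, minus strand: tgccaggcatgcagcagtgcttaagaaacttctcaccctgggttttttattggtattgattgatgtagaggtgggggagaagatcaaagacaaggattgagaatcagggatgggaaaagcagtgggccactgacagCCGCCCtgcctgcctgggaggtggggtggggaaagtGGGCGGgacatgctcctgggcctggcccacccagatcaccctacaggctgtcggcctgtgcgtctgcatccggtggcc
PMAIP1, chr18:59899746-59899995, plus strand: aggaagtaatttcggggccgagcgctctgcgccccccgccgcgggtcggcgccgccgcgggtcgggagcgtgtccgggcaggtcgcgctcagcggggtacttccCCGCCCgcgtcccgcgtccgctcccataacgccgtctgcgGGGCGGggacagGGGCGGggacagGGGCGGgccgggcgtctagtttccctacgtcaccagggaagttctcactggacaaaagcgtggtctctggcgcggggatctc
BBC3, chr19:47232668-47232917, minus strand: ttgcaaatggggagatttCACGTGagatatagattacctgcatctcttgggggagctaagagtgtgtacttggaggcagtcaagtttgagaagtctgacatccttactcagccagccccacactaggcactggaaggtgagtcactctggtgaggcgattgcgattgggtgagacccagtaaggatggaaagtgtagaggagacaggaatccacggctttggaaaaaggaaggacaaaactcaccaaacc
The BAX promoter holds 4 E-boxes, the binding letters of MYC and its relatives. They begin 138, 93, 45 and 14 bases before the start. BAK1 and PMAIP1 have no E-box in these windows, and BBC3 has 1, which begins 232 bases before the start. PMAIP1 has 4 GC boxes, the binding letters of SP1, BAK1 has 2, and BBC3 has none. Over all 35116 RefSeq windows of 300 bases (250 before to 50 after a start), 7.26% hold an E-box, and only 5 windows hold at least 4 of them. The E-box was added to the search after the windows were seen. A GC box is in 45.0% of all windows and in 12 of the 16 windows searched for 9 of the 10 genes, 5 of them from BID and partly overlapping. An E-box is in 4 of these 16 windows, from BAX, BBC3 and BID. MCL1 was not part of the motif search. Neither the C/EBP-ATF element TTGCATCA (0.866% of all windows), nor the cAMP response element TGACGTCA (1.85%), nor the forkhead element TTGTTTAC (0.954%) is written in any of those 16 windows. A match is a run of letters, and binding was not measured.

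After isoginkgetin both pairs of pore formers and guardians split, while 4 of the 6 BH3-only genes were called higher. BAX and BCL2L1 fell, BAK1 and MCL1 rose, and of the BH3-only genes BBC3, PMAIP1, BCL2L11 and BID rose and BMF fell. The calls of BCL2L11 and BID end when fold changes are centred on the median of all called genes, 0.21. With that centring BBC3 and PMAIP1 are the BH3-only genes called higher. Of the 10 genes 9 passed an adjusted p under 0.05 in the table deposited by the authors, against 43.6% of the 20024 genes that the authors tested. The 6 that were higher stand beside 22.4% of all tested genes, and the 3 that were lower beside 21.1%. These genes were named with earlier results of these data known, so no more is read from the share. Their median log2 fold change was 0.35, beside 0.21 over all genes of the table deposited by the authors. That median is taken over genes past the threshold only, where values near 0 are missing, and at a mean normalized count of 100 or more it was −0.15. Centring on −0.15 was not run. It would raise BCL2L11 and BID, so the loss of their calls depends on the median chosen. The median size of the change, without its sign, was 0.76 in the family and 0.70 over the table deposited by the authors.

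**Figure D1:**
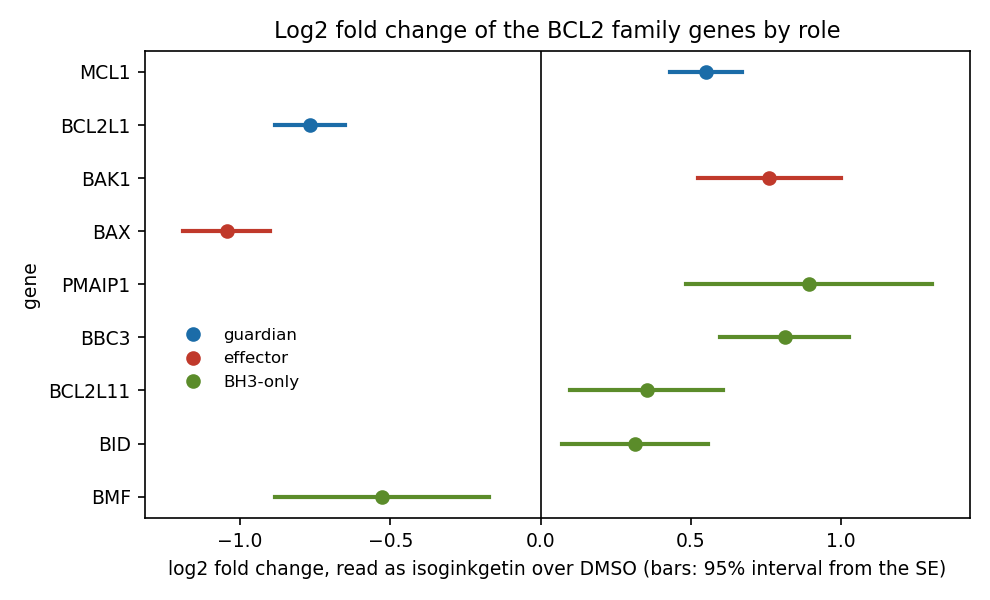
Log2 fold change (x axis, read as isoginkgetin over DMSO) of the 9 BCL2 family genes with a row, one gene per line of the y axis, coloured by role; points are deposited values and bars are 95% intervals from the deposited SE. Within each role the genes lie on both sides of 0, from −1.04 for BAX to 0.89 for PMAIP1.

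MCL1, a short-lived guardian that binds BAK1, PMAIP1 and BCL2L11, was higher after isoginkgetin. Its mean was 8208 normalized counts in isoginkgetin cells, against 5603 in DMSO cells. The log2 fold change of MCL1 in the table deposited by the authors was 0.55 (SE 0.06, 95% interval 0.43 to 0.67, adjusted p 9.54e-19), a 1.46-fold higher level. MCL1 lies on chromosome 1 (150574551 to 150579738, minus strand, GRCh38, GENCODE 29), and 2 of its 4371 exon bases are shared with another gene.

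BCL2L1, which encodes the guardian BCL-xL and its short, death-promoting splice form BCL-xS, moved the other way. Its mean was 3684 normalized counts in isoginkgetin cells, against 6271 in DMSO cells. For BCL2L1 the table deposited by the authors gives −0.77 on the log2 scale (SE 0.06, 95% interval −0.88 to −0.65, adjusted p 4.28e-37). The interval of BCL2L1 does not meet that of MCL1, and their log2 fold changes differ by 1.32. BCL2L1 lies on chromosome 20 (31664452 to 31723989, minus strand, GRCh38, GENCODE 29). On the opposite strand ABALON, an antisense transcript, covers 1424 of its 3314 exon bases (43.0%). ABALON has a row of its own in the table deposited by the authors, with a mean normalized count of 343.7 and a log2 change of −1.35 (SE 0.18, adjusted p 3.24e-14). Its mean was 193.9 normalized counts in isoginkgetin cells, against 493.5 in DMSO cells. Because the libraries were made without strand information, BCL2L1 and ABALON reads in the shared bases cannot be told apart. Gene counts also do not separate splice forms, of which GENCODE 29 lists 9 transcripts for BCL2L1 and 4 for MCL1.

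BAX, an effector that moves from the cytosol to mitochondria when it is activated, had the lowest fold change of the family. Its mean was 2057 normalized counts in isoginkgetin cells, against 4242 in DMSO cells. BAX stood at −1.04 (SE 0.07, 95% interval −1.19 to −0.90, adjusted p 9.93e-44) on the log2 scale in the table deposited by the authors, a 2.06-fold lower level. It was the only member past 2-fold, and 16.0% of the genes in the table deposited by the authors had a lower fold change. The gene lies on chromosome 19 (48954815 to 48961798, plus strand, GRCh38, GENCODE 29) and shares no exon base with another gene in that annotation.

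BAK1, the effector that sits in the outer mitochondrial membrane from the start, was higher. Its mean was 1248 normalized counts in isoginkgetin cells, against 736.3 in DMSO cells. The log2 fold change of BAK1 in the table deposited by the authors was 0.76 (SE 0.12, 95% interval 0.52 to 0.998, adjusted p 8.54e-10). Its SE was above that of 98.0% of the 200 genes nearest to it in mean count, whose median SE was 0.109. The log2 fold changes of BAK1 and BAX differ by 1.80, and their intervals lie on opposite sides of 0. BAK1 lies on chromosome 6 (33572547 to 33580293, minus strand, GRCh38, GENCODE 29), with 4.11% of its exon bases shared with a pseudogene on the opposite strand.

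**Figure D2:**
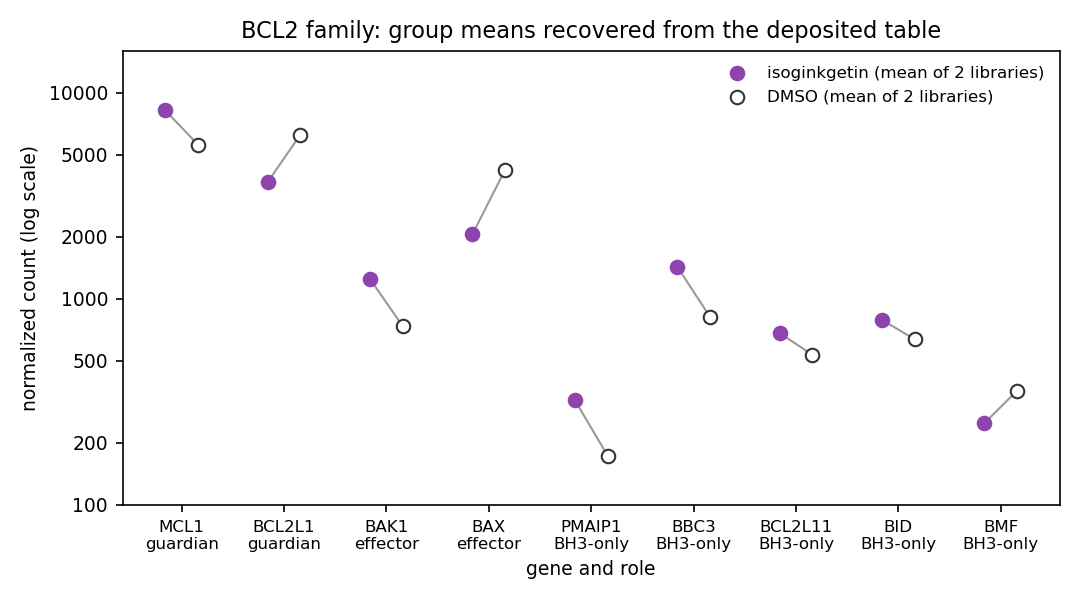
Mean normalized count (y axis, log scale) of each gene (x axis) in isoginkgetin cells (filled, left) and DMSO cells (open, right), recovered from the deposited mean and fold change of 2 libraries per group, with no error of their own. The filled point is the lower one for BCL2L1, BAX and BMF and the higher one for the other 6 genes; counts are not divided by gene length, so heights compare groups within a gene.

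Among the BH3-only genes, PMAIP1 and BBC3 rose most. PMAIP1 encodes NOXA, which binds MCL1 and promotes its breakdown. Its mean was 322.6 normalized counts in isoginkgetin cells, against 173.6 in DMSO cells. PMAIP1 changed by 0.89 on the log2 scale (SE 0.21, 95% interval 0.49 to 1.30, adjusted p 2.26e-05) in the table deposited by the authors, with the widest interval of the family. BBC3 encodes PUMA, which binds all the guardians. Its mean was 1435 normalized counts in isoginkgetin cells, against 817.8 in DMSO cells. In the table deposited by the authors BBC3 stood at 0.81 on the log2 scale (SE 0.11, 95% interval 0.60 to 1.02, adjusted p 3.43e-13). The intervals of PMAIP1, BBC3 and BAK1 overlap, so no order among these 3 genes can be read.

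BCL2L11 and BID changed less. BCL2L11 encodes BIM, which binds every guardian and can activate BAX and BAK1. Its mean was 682.9 normalized counts in isoginkgetin cells, against 534.8 in DMSO cells, and its log2 fold change in the table deposited by the authors was 0.35 (SE 0.13, adjusted p 0.0135). BID, which caspase-8 cleaves to carry the death receptor signal to mitochondria, had a mean of 790.6 normalized counts in isoginkgetin cells, against 636.4 in DMSO cells. For BID the log2 fold change was 0.31 (SE 0.12, adjusted p 0.0241) in the table deposited by the authors, the closest to 0 and the weakest call of the family. Centred on the median of the table deposited by the authors, BCL2L11 was at 0.14 (SE 0.13) and BID at 0.10 (SE 0.12), and neither stayed past the threshold. BCL2L11 lies on chromosome 2 (111119378 to 111168447, plus strand), and 10.9% of its exon bases are shared with MIR4435-2HG on the opposite strand in GENCODE 29 (GRCh38).

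BMF was the BH3-only gene that fell. Its protein is known to be held at the actin cytoskeleton through dynein light chain. The mean of BMF was 249.3 normalized counts in isoginkgetin cells, against 359.0 in DMSO cells. Its log2 fold change was −0.53 (SE 0.18, 95% interval −0.88 to −0.17, adjusted p 0.00635) in the table deposited by the authors. BMF lies on chromosome 15 (40087890 to 40108892, minus strand, GRCh38, GENCODE 29), with 8.46% of its exon bases shared with BMF-AS1. In the order of fold changes BAX stands apart below BCL2L1, and BMF apart below BID, by intervals that do not meet. All other neighbours, from BCL2L1 to BMF and from BID through BCL2L11, MCL1, BAK1 and BBC3 to PMAIP1, have intervals that overlap.

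**Figure D3:**
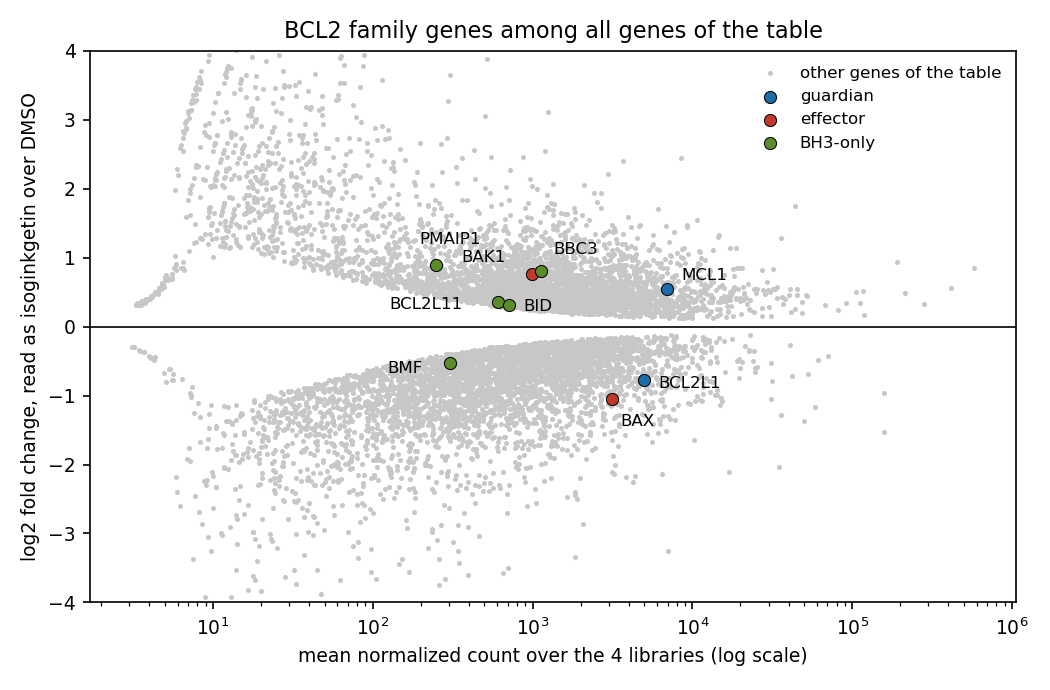
Log2 fold change (y axis, read as isoginkgetin over DMSO) against the mean normalized count over the 4 libraries (x axis, log scale) for all genes of the deposited table (grey) and the 9 BCL2 family genes (coloured by role); the 228 genes beyond 4 on the y axis are not drawn. The gap around 0 is where genes did not pass the threshold, and BID at 0.31 and BCL2L11 at 0.35 lie near its edge.

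The number of members called depended on the rule. By the values of the table deposited by the authors, 7 members passed an adjusted p under 0.01, which 35.8% of the tested genes passed, and 6 passed 0.001, as did 29.2% of the tested genes. The guardians, the effectors, BBC3 and PMAIP1 are those 6. With the Bonferroni correction PMAIP1 dropped out too and 5 members were left, beside 21.7% of the tested genes. An adjusted p under 0.05 together with a change of at least 1.5-fold was reached by 5 members, BAX, BCL2L1, BAK1, BBC3 and PMAIP1, and by 26.2% of the tested genes. The same threshold with a change of at least 2-fold was reached by BAX alone among the members and by 13.7% of the tested genes.

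Levels of different genes were compared as normalized counts per kilobase of exon in GENCODE 29, which may differ from the annotation the authors counted with. MCL1 had 1878 normalized counts per kilobase in isoginkgetin cells, against 1282 in DMSO cells. For BCL2L1 the level per kilobase was 1112 in isoginkgetin cells, against 1892 in DMSO cells. MCL1 thus stood at 1.69 times the level of BCL2L1 in isoginkgetin cells and at 0.677 times in DMSO cells. This ranking depends on the bases shared with ABALON: if no read there was counted for BCL2L1, its level over the other 1890 exon bases was 1949 per kilobase in isoginkgetin cells, against 3318 in DMSO cells. MCL1 would then stand at 0.963 times the level of BCL2L1 in isoginkgetin cells and at 0.386 times in DMSO cells. BAX had 795.3 per kilobase in isoginkgetin cells, against 1640 in DMSO cells. BAK1 was at 564.0 per kilobase in isoginkgetin cells, against 332.9 in DMSO cells, which makes 0.709 times the level of BAX in isoginkgetin cells and 0.203 times in DMSO cells. The BH3-only genes lay lower, from BMF at 45.8 to BBC3 at 451.3 per kilobase in isoginkgetin cells, and from BMF at 65.9 to BBC3 at 257.2 in DMSO cells.

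Summed by role, levels per kilobase moved unequally. The 5 BH3-only genes with a row summed to 921.8 normalized counts per kilobase in isoginkgetin cells, against 624.2 in DMSO cells, a ratio of 1.48. BBC3 gave the largest part of this sum, 451.3 in isoginkgetin cells, against 257.2 in DMSO cells, while BMF fell. The effectors summed to 1359 in isoginkgetin cells, against 1973 in DMSO cells, a ratio of 0.689. The guardians summed to 2989 in isoginkgetin cells, against 3174 in DMSO cells, a ratio of 0.942. These sums carry no error and were not tested, and the guardian sum includes the bases that BCL2L1 shares with ABALON. Over its other bases the guardian sum was 3827 in isoginkgetin cells, against 4600 in DMSO cells, a ratio of 0.832.

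Relatives outside the 10 genes were read from lists made for the pathway with earlier results of these data known. The count of each list stands against the 22.4% of all tested genes called higher and the 21.1% called lower. The other guardians had 3 of 4 genes in the table deposited by the authors, all higher. BCL2 itself stood at 0.55 (SE 0.24, adjusted p 0.0277) and BCL2L2, which encodes BCL-w, at 0.21 (SE 0.09, adjusted p 0.0446) on the log2 scale in the table deposited by the authors. The value of BCL2L2 is near the median of 0.21 on which the members were centred, and the lists were not centred. BCL2L10 is listed there at 4.33 with an SE of 1.60 and a mean normalized count of 10.9. The effector relative BOK and the BH3-only genes BIK and HRK have no row. Of 13 other genes listed as BCL2-like, BH3-like or binding partners of the family, 6 were higher and 4 lower. The 76.9% with a row stand beside 43.6% of all tested genes. In the table deposited by the authors the mitochondrial receptors BCL2L13 and BNIP3L were at −1.42 (SE 0.16) and −1.40 (SE 0.11), and BNIP3 at −0.66 (SE 0.06). BNIP2 and BNIP1, of the same list, were higher at 0.91 (SE 0.10) and 0.78 (SE 0.19) in the table deposited by the authors. BCL2L14 is listed at 2.61 (SE 1.01) in the table deposited by the authors, at a mean normalized count of 15.5.

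Downstream of the family, 6 of 10 listed mitochondrial partners and channels have a row, each of them higher, and the released factors went both ways. The 6 genes, with a median log2 fold change of 0.41, stand beside 22.4% of all tested genes that were called higher, and no more is read from a list made with earlier results known. Among them was VDAC2, a channel known to hold BAK1 and BAX at mitochondria, at 0.63 (SE 0.06, adjusted p 7.48e-28) in the table deposited by the authors. The fusion protein gene MFN2 stood at 0.59 and TMBIM6, a protein of the endoplasmic reticulum membrane also named BAX inhibitor 1, at 0.53 in the table deposited by the authors. VDAC1, MFF and FIS1 were at 0.23, 0.25 and 0.29, near the medians of 0.21 and 0.26 on which the members were centred. The lists were not centred, so whether these calls would stay was not tested. CYCS, which encodes cytochrome c, was at 0.96 (SE 0.08, adjusted p 5.11e-36) and DIABLO, whose product relieves the inhibition of caspases, at 1.62 (SE 0.48) in the table deposited by the authors. The mean normalized count of DIABLO was low at 51.6, against 2844 for CYCS. In the same list of 7 genes CASP9, the caspase that cytochrome c and APAF1 activate, was lower at −0.78 (SE 0.18, adjusted p 2.43e-05) in the table deposited by the authors, as were AIFM1 and ENDOG.

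Of 7 listed caspases 4 have a row (57.1%, beside 43.6% of all tested genes), 3 of them higher and 1 lower. CASP2 stood at 0.33 (SE 0.11) and CASP4, an inflammatory caspase, at 0.29 (SE 0.11) in the table deposited by the authors. CASP8, which cleaves BID, was at −0.67 (SE 0.12, adjusted p 2.29e-07) in the table deposited by the authors. The death receptor arm around CASP8 had 5 of 12 genes with a row (41.7%), a share near the 43.6% of all tested genes. Of these 5 genes 4 were lower and 1 was higher (median −0.51). TNFSF10, the ligand TRAIL, was at −1.09 (SE 0.64) in the table deposited by the authors, at a mean normalized count of 28.0 and with a 95% interval from the SE of −2.34 to 0.17, which crosses 0. The adaptor TRADD was at −0.71 (SE 0.24) and the receptor TNFRSF1A at −0.51 (SE 0.08) in the table deposited by the authors, while the decoy receptor TNFRSF10D was higher at 0.39. Of 7 inhibitors of apoptosis proteins 3 have a row (42.9%), also near the 43.6% of all tested genes. BIRC7 was at 2.704 (SE 0.57), BIRC3 at 0.99 (SE 0.48) and the large ubiquitin ligase BIRC6 at −0.35 (SE 0.07) in the table deposited by the authors, the first and second at mean normalized counts of 44.1 and 47.4.

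Upstream, the list of 15 genes holds transcription factors known to act on BH3-only genes and the pseudokinase TRIB3. Of these genes 8 were higher and 3 lower, beside 22.4% and 21.1% of all tested genes. TRIB3 was among the higher ones, at 0.65 (SE 0.05) in the table deposited by the authors. The stress factors ATF3 and DDIT3 stood at 2.02 (SE 0.13) and 1.22 (SE 0.13) in the table deposited by the authors, and ATF4, known to act on PMAIP1, at 0.73 (SE 0.05). MYC was at 0.997 (SE 0.05) and FOXO3, known to act on BCL2L11 and BBC3, at 0.82 (SE 0.09) in the table deposited by the authors. E2F1, TP73 and FOXO1 were lower, at −1.67 (SE 0.10), −1.50 (SE 0.40) and −0.86 (SE 0.11) in the table deposited by the authors.

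Genes that act on the proteins of the family after translation were mixed. Of 12 genes of MCL1 protein turnover, 3 were higher and 3 lower, beside 22.4% and 21.1% of all tested genes. In the table deposited by the authors the deubiquitinase gene USP13 stood at −1.29 (SE 0.11), DESI1 at −0.71 (SE 0.10) and the ubiquitin ligase HUWE1, also named MULE, at −0.46 (SE 0.05), while FBXW7, which recognises phosphorylated MCL1, was at 0.92 (SE 0.12). Of 16 anchors and modifying enzymes of BAD, BMF and BCL2L11, 7 were higher and 3 lower (62.5% called, beside 43.6% of all tested genes). DYNLL2, the dynein light chain that holds BMF, was at 0.55 (SE 0.08), and PIM3 and AKT1, kinases of BAD, at 0.54 and −0.47 in the table deposited by the authors. Of 19 splicing factors known to act on BCL2L1 or MCL1 transcripts, 4 were higher and 5 lower. The 47.4% called is a share near the 43.6% of all tested genes. The lowest were TIA1 at −0.90 (SE 0.09), RBM10 at −0.69 (SE 0.09) and SRSF1 at −0.42 (SE 0.08) in the table deposited by the authors. The highest were TRA2B at 0.42 (SE 0.06) and SRSF9 at 0.40 (SE 0.08).

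**Figure D4:**
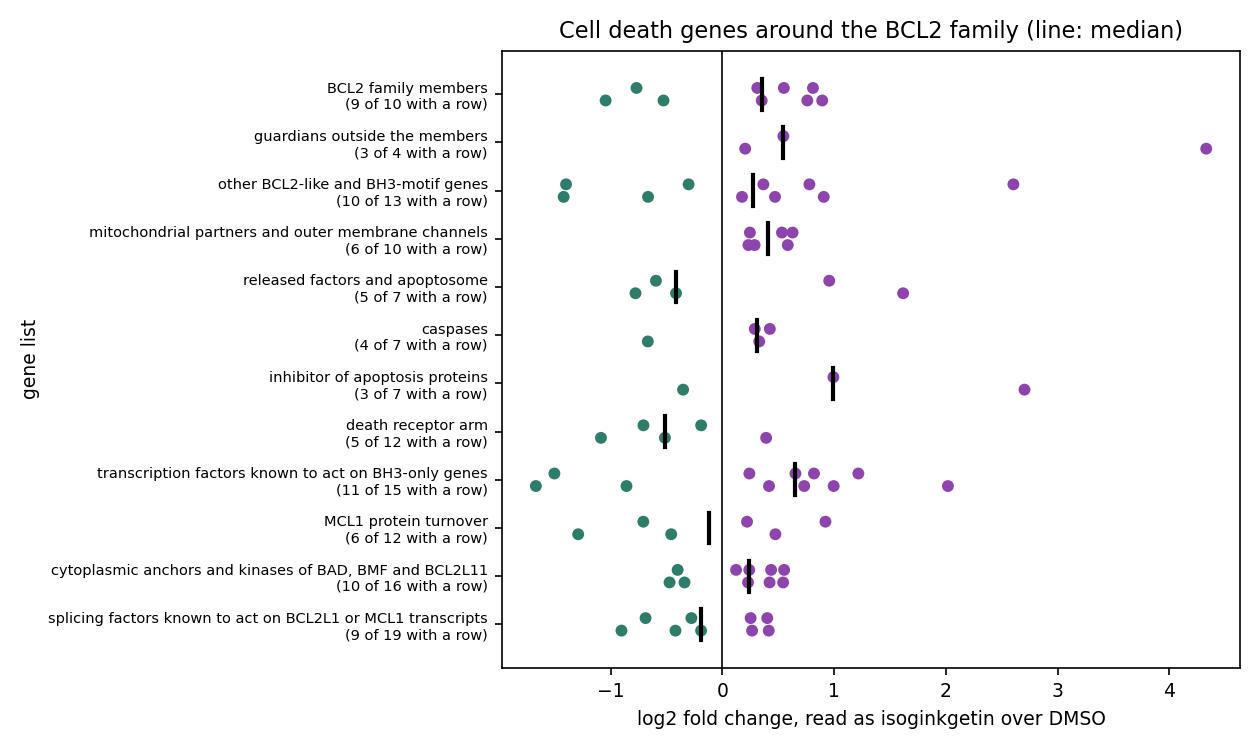
Log2 fold change (x axis, read as isoginkgetin over DMSO) of each gene with a row, by gene list (y axis, with the number of listed genes that have a row); purple points are higher, green points lower and black lines mark the median of each list. All 6 mitochondrial partners lie above 0 and 4 of the 5 death receptor genes below it.

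The label of the cells was set beside marker genes. Of 13 hepatocyte markers 12 have a row in the table deposited by the authors, at mean normalized counts of 442.3 to 157429, with 1 higher and 11 lower. Of markers of other cells the table deposited by the authors holds 1 of 7 for fibroblasts, 1 of 6 for leukocytes and 2 of 5 for endothelium, all lower. The leukocyte marker is LYZ, which encodes lysozyme, at a mean normalized count of 15328, above the lowest hepatocyte marker. The fibroblast and endothelial markers lay between 14.2 and 128.9. A row stands for a call at an adjusted p under 0.05, which 43.6% of all tested genes passed, 22.4% higher and 21.1% lower. A marker without a row may still be expressed, so counts of rows alone cannot show which cells are present. Whether the lower hepatocyte genes bear on the values of the BCL2 family was not tested.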

How the data were processed

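Polyadenylated RNA of HepG2 cells was sequenced in 2 isoginkgetin and 2 DMSO libraries. Titles of the samples gave the groups, and the design text the dose and time. Per the labels' protocols, the libraries were non-directional. STAR 2.7.0 and featureCounts are named in the submitters' processing notes, as are mm10 and hg19. Which build was aligned to, the annotation and the total count of each library were not given in the sources used here, so the depth is unknown.

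Per the file headers, the authors deposited 1 table in the layout of DESeq2 results. The deposited mean normalized count was taken to be a signal, scaled by size factors and then averaged over the 4 libraries. The deposited log2 fold change and SE are on the log2 scale. The deposited p-value of a gene stands beside its adjusted p-value, always under 0.05. Adjusted p times rank over p gave 20024 tested genes at all 1798 ranks used, a step checked on simulated tables.

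Group means were computed from the mean count and the fold change, for 2 libraries per group. The 95% intervals are the fold change ± the normal deviate times the SE, and they ignore the covariance between genes. Divided by its SE, the size of the fold change was 0.940 to 0.994 times the normal deviate of the p-value for the 9 genes, and 0.585 (median) for genes under a mean count of 30, so low genes look shrunken. Motifs were searched in RefSeq promoter windows, and exon lengths came from GENCODE 29, with Python 3.11.15, pandas 2.3.3 and scipy 1.17.1. The members and lists were chosen with earlier results of these data known. All 10 members are named, and from each list at least the 3 genes with the largest change, apart from a caspase that is not reported here; 1 list entry was an older name of another and was dropped. Protein sequences were not used here. Count models, a replicate block and leaving out libraries need values per library and were not run.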

Additional observations from a re-analysis of the deposited data

How the results depend on the processing

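Of the 9 genes called, 5 were left with the Bonferroni correction, 5 at 1.5-fold or more and 1 at 2-fold or more. Adjusted p under 0.01 left 7 genes, 0.001 left 6, and a mean normalized count of at least 100 left all 9. Of 125 context genes listed, 72 were called (57.6%, beside 43.6% of all tested genes), 32 at 1.5-fold or more (beside 26.2% of all tested genes) and 50 at an adjusted p under 0.001 (beside 29.2%). Centring on the median of the table (0.21) or of its genes at a mean count of 1000 or more (0.26) turned no member's direction and left 7 of the 9 calls. The calls lost were BID, then at 0.10 and 0.055 (SE 0.12), and BCL2L11, then at 0.14 and 0.095 (SE 0.13). With BCL2L1 taken over the exon bases it does not share with ABALON, an alternative chosen after seeing the data, the level of MCL1 over BCL2L1 per kilobase was 0.963 in isoginkgetin cells in place of 1.69, and 0.386 in DMSO cells in place of 0.677. The centring medians leave out genes that did not pass, so they are no measure of a shift of all genes. At a mean normalized count of 100 or more the median is −0.15, and centring on it was not run. It would raise BID and BCL2L11 and make the fall of BMF smaller, so which calls are lost depends on the median chosen. Fold changes rebuilt from the p-value and the SE take their sign from the deposited value, so only their size could differ. PMAIP1 at 0.95 and BMF at −0.56 were the members that moved most. No paired analysis was possible because the table holds no values per library. For the same reason, leaving out each library and comparing edgeR with DESeq2 were not run.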

Other observations

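Genes beside or opposite 2 genes without a row, the member BAD and its relative BOK, do have a row. Because the libraries were made without strand information, GPR137 and BAD reads in shared bases cannot be told apart. How many exon bases BOK-AS1 shares with BOK was not examined. GPR137, which shares 404 of the 1708 exon bases of BAD on the opposite strand in GENCODE 29, had a mean of 391.6 normalized counts in isoginkgetin cells, against 550.1 in DMSO cells. Its log2 fold change in the table deposited by the authors was −0.49 (SE 0.15, adjusted p 0.00209). BOK-AS1, the named antisense of the effector relative BOK, had a mean of 178.2 normalized counts in isoginkgetin cells, against 316.0 in DMSO cells. It stood at −0.83 (SE 0.21, adjusted p 0.000140) in the table deposited by the authors. BOK-AS1 and GPR137 were named after their values were seen.

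The other 4 RefSeq windows with at least 4 E-boxes belong to LAMP1, which encodes a lysosomal membrane protein and has 6, and to RAD9A, AMDHD2 and SLC25A31. In the table deposited by the authors LAMP1 was at 0.39 (SE 0.05, adjusted p 1.66e-12), RAD9A at 0.65 (SE 0.15, adjusted p 2.47e-05) and AMDHD2 at −0.66 (SE 0.14, adjusted p 7.7e-06). SLC25A31 has no row. Of the 4 such genes with a row 2 were higher and 2 lower, BAX being the lowest.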
